A study of Arabidopsis thaliana with 4 samples.

Results

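The carboxylesterase (CXE) genes of Arabidopsis described here are a set of 10 loci, chosen by the measured rise of AT1G68620, whose signal was seen to be higher in plants overexpressing RECA1. The other 9 loci were added as relatives of AT1G68620, with earlier results of these data known. All 10 are named here whatever their values. Each locus was looked up in the platform annotation, which paired 7 of the 10 with 1 probe set each, out of 22746 probe sets on the array and 13286 genes that the annotation paired with a probe set of their own. Probe sets that the annotation paired with several genes were not used for any locus. CXE5 (AT1G49660), CXE12 (AT3G48690) and CXE13 (AT3G48700) thus had no paired probe set of their own and were not analysed here. No signal level was left out.

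Total RNA came from 2-week-old whole seedlings grown on plates without treatment, and each sample was hybridised to 1 Affymetrix array. The control group was wild type Col-0, the Columbia ecotype, with 2 arrays. The other group, called RECA1-OE here, was the T3 generation of transgenic plants of the same ecotype overexpressing RECA1 (AT1G79050), a chloroplast-targeted relative of the bacterial recombinase RecA, also with 2 arrays. The promoter driving the transgene and the number of independent lines are not given in the sources used here. Replicates are labelled as biological, but nothing states that they were separate cultures, so the p-values measure only the spread between these arrays. No probe set was paired with RECA1 alone, so the group labels were not checked against the transgene.

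Plant carboxylesterases of this family are alpha/beta hydrolases, enzymes that cut ester bonds in small molecules with a serine of their active site. Some relatives no longer act as esterases: the gibberellin receptors GID1A, GID1B and GID1C have the same fold and bind the hormone instead of hydrolysing it. Another member of the family is known to break down strigolactones, and the tobacco gene HSR203J of this family is switched on during the hypersensitive response to pathogens.

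AT1G68620 was higher in both RECA1-OE arrays. Its log2 signal was 7.53 and 6.89 in Col-0 replicates 1 and 2, and 10.46 and 10.62 in RECA1-OE replicates 1 and 2. Both RECA1-OE arrays thus lay above both Col-0 arrays, and the gap between the nearest values of the groups was 2.93, whereas the replicates lay 0.64 apart in Col-0 and 0.16 apart in RECA1-OE. The group means were 7.21 ± 0.45 and 10.54 ± 0.11 (SD, n = 2 each), a difference of 3.33 on the log2 scale or 10.05-fold. It took place 71 when all 22746 probe sets were ordered from the largest rise down. No test is given for this gene, because its rise is what brought the family to attention. Its mean signal exceeded that of 70.3% of all probe sets, and its Col-0 values lay above 6.82, the lowest mean among the brighter 60% of probe sets. The size was 12.6-fold when Col-0 replicate 1 was omitted and 8.04-fold when Col-0 replicate 2 was, the widest range over the 11 processing alternatives.

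Of the other 6 measured genes of the set, 1 was lower in RECA1-OE, 0 were higher and 5 did not pass limma's test at an adjusted p under 0.05. Over all probe sets 7.86% were called in either direction, 4.55% higher and 3.31% lower, so 1 call among 6 genes is a count too small to set apart from that share. The median log2 difference of the 6 genes was 0.10, beside -0.04 over all probe sets. Without Col-0 replicate 2 the calls were 636 over all probe sets in place of 1787, and 0 of the 6 genes by limma, with 1 at an unadjusted p under 0.05. When either RECA1-OE array was omitted, limma made 0 calls over all probe sets, with 3872 (replicate 1 omitted) and 4524 (replicate 2 omitted) at an unadjusted p under 0.05.

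The gene that fell was AT1G49650. Its log2 signal was 8.66 and 9.02 in Col-0 replicates 1 and 2, and 7.64 and 7.90 in RECA1-OE replicates 1 and 2. The groups did not overlap, and the gap of 0.75 between their nearest values was wider than the gap of 0.36 within Col-0 and of 0.26 within RECA1-OE. The mean went from 8.84 ± 0.25 to 7.77 ± 0.19 (SD, n = 2 each), which is 2.09-fold lower, with a log2 difference of -1.07 ± 0.20 (SE) and a limma adjusted p of 0.035. The size stayed between 1.85-fold and 2.37-fold lower under the 11 alternatives, while the limma adjusted p ranged from 0.011 to 0.240. The call was lost without Col-0 replicate 2 (limma adjusted p = 0.136), without a mean-variance trend in the fit (0.168) and when either RECA1-OE array was omitted (0.240 for replicate 1, 0.184 for replicate 2). AT1G49650 lies on chromosome 1 between its relatives AT1G49640 and CXE5 (AT1G49660), neither of which had a paired probe set. Whether RNA of those neighbours also binds its probes was not tested.

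**Figure D1:**
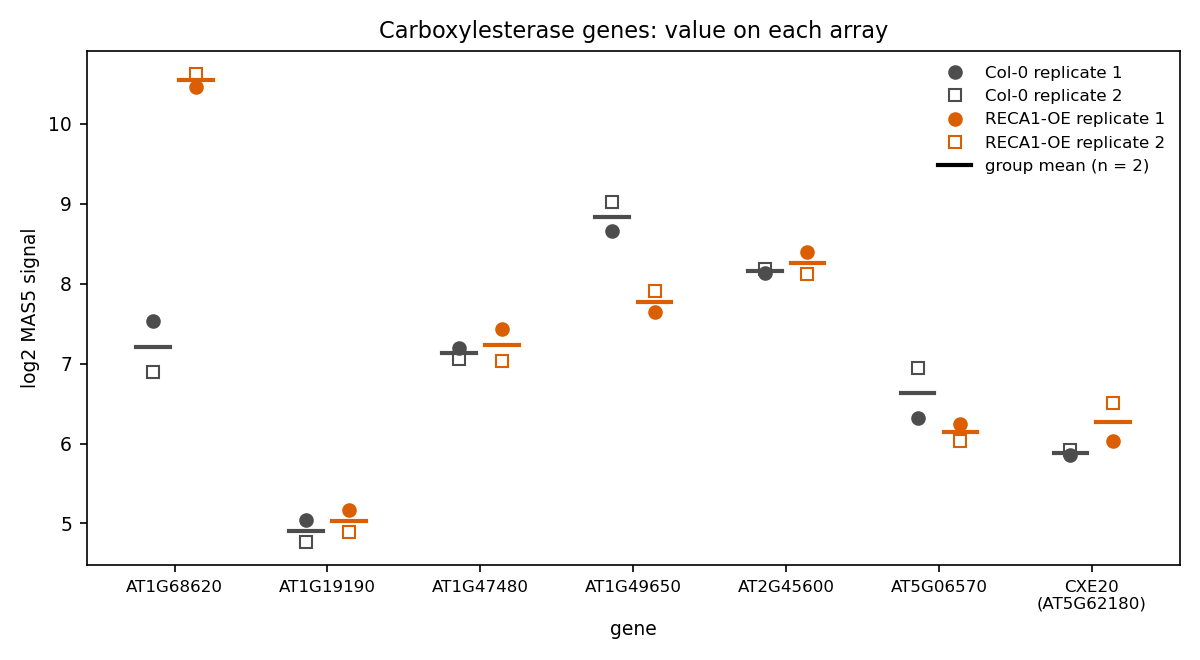
The log2 signal of the 7 measured carboxylesterase genes on each of the 4 arrays, with filled circles for replicate 1, open squares for replicate 2, grey for Col-0, orange for RECA1-OE and bars for group means (n = 2). AT1G68620 is near 7 in Col-0 and above 10 in RECA1-OE, AT1G49650 is lower on both RECA1-OE arrays, and the other 5 genes lie close together or overlap.

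AT2G45600 and AT1G47480 had overlapping groups. AT2G45600 had a log2 signal of 8.13 and 8.18 in Col-0 and of 8.40 and 8.12 in RECA1-OE. One RECA1-OE array was the highest of the 4 and the other the lowest. The log2 difference of AT2G45600 was 0.10 ± 0.18 (SE), with a 95% interval from -0.33 to 0.54, that is from 0.80-fold to 1.45-fold, and a limma adjusted p of 0.764. AT1G47480 had 7.20 and 7.06 in Col-0 and 7.43 and 7.03 in RECA1-OE. Here too RECA1-OE replicates 1 and 2 were the highest and the lowest array. The log2 difference of AT1G47480 was 0.10 ± 0.25 (SE), with a 95% interval from -0.51 to 0.72 and a limma adjusted p of 0.842. Without RECA1-OE replicate 1 the sign of both genes turned, to -0.03 and -0.10. A change of the size seen at AT1G49650 lay outside both intervals in either direction.

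The remaining 3 measured genes of the set were dim, within the lowest 40% of probe sets by mean signal, where arrays of a group agreed less well. The median gap between the Col-0 arrays was 0.56 on the log2 scale in that dim part and 0.19 above it. AT5G06570 had a log2 signal of 6.32 and 6.95 in Col-0 and of 6.24 and 6.04 in RECA1-OE. Both RECA1-OE arrays were lower, by a margin of 0.08 that is small beside the 0.63 between the Col-0 arrays. Its log2 difference was -0.50 ± 0.35 (SE), with a 95% interval from -1.35 to 0.36 and a limma adjusted p of 0.438. Omitting Col-0 replicate 1 gave -0.81, and omitting Col-0 replicate 2 gave -0.18.

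CXE20 (AT5G62180), named as a carboxylesterase in RefSeq, had 5.85 and 5.92 in Col-0 and 6.03 and 6.51 in RECA1-OE. Both RECA1-OE arrays were higher, by a margin of 0.12 where the RECA1-OE arrays themselves were 0.48 apart. The log2 difference of CXE20 was 0.39 ± 0.35 (SE), with a 95% interval from -0.48 to 1.25 and a limma adjusted p of 0.553. AT1G19190, the dimmest, had 5.04 and 4.77 in Col-0 and 5.17 and 4.89 in RECA1-OE, with overlapping groups. Its log2 difference of 0.12 ± 0.46 (SE) had a 95% interval from -1.02 to 1.26 and a limma adjusted p of 0.904. A rise or fall of about 2-fold lay within the interval of AT1G19190, so a change of that size was not excluded. The interval of AT5G06570 likewise held a 2-fold fall, and that of CXE20 a 2-fold rise. Leaving aside AT1G68620, the groups did not overlap at 3 of the 6 genes, near the 55.9% of all probe sets.

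The rest of the family was taken from a list of 10 further loci, of which 8 had a paired probe set. By limma 0 of the 8 passed, beside the 7.86% of all probe sets called. Of the 8 genes, 4 had an unadjusted p under 0.05, beside 24.9% of all probe sets. The groups did not overlap at any of the 8 genes, beside the 55.9% of all probe sets. These 8 genes are few, and their counts were not tested against those shares. The margin between the groups ranged from 0.0039 at CXE18 (AT5G23530) to 1.39 at AT2G45610 on the log2 scale. At CXE18 the Col-0 arrays themselves lay 0.31 apart. The mean of 3 was higher and that of 5 lower in RECA1-OE, with a median log2 difference of -0.15.

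CXE16 (AT5G14310) came nearest to a call. Its log2 signal was 8.00 and 8.21 in Col-0 and 8.75 and 8.85 in RECA1-OE. Both RECA1-OE arrays were higher by more than the gap within either group. The log2 difference of CXE16 was 0.69 ± 0.16 (SE), or 1.62-fold, and the limma adjusted p was 0.056. It passed with a limma adjusted p of 0.028 when the lowest 40% of probe sets were left out, 0.025 when the lowest 60% were left out and 0.049 after median centring. CXE16 did not pass by limma after quantile normalization (adjusted p = 0.062) or with 16 added before log2 (0.058). Nor did it pass by limma with the replicate number as a block (adjusted p = 0.075) or without a mean-variance trend (0.188). With 1 array left out its size ranged from 1.51-fold to 1.74-fold. AT2G03550 had 9.64 and 9.76 in Col-0 and 9.26 and 9.28 in RECA1-OE, a log2 difference of -0.43 ± 0.13 (SE), and its limma adjusted p was 0.097. AT2G03550 was lower on both RECA1-OE arrays under a narrow spread in each group.

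AT2G45610, the chromosomal neighbour of AT2G45600, had the largest negative difference of the measured family genes and was the dimmest of them. Its log2 signal was 4.34 and 4.26 in Col-0 and 1.33 and 2.86 in RECA1-OE. The RECA1-OE arrays were 1.53 apart, against 0.09 in Col-0. The log2 difference was -2.20 ± 0.81 (SE), with a limma adjusted p of 0.163, and it was -0.78 when 16 was added to each linear value before taking log2. Omitting RECA1-OE replicate 1 gave -1.44 and omitting RECA1-OE replicate 2 gave -2.97, so the size depends on the offset and on single arrays. Its neighbour AT2G45600, with a signal above 59.1% of all probe sets, differed by 0.10.

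The 3 gibberellin receptor genes of the family did not pass the test. GID1C (AT5G27320) had 7.67 and 7.50 in Col-0 and 6.66 and 7.09 in RECA1-OE, both lower, with a log2 difference of -0.71 ± 0.25 (SE) and a limma adjusted p of 0.151. GID1A (AT3G05120) had 9.20 and 9.16 in Col-0 and 9.27 and 9.35 in RECA1-OE. The log2 difference of GID1A was 0.13 ± 0.13 (SE), with a 95% interval from -0.18 to 0.44 that leaves room for at most a 1.36-fold rise. GID1B (AT3G63010) differed by 0.33 ± 0.20 (SE), with 8.20 and 7.80 in Col-0 against 8.35 and 8.31 in RECA1-OE. The receptors thus showed 1 negative and 2 positive differences, none of which passed. SLY1 (AT4G24210), the F-box protein through which gibberellin signalling removes DELLA repressors, was the only measured gene of 13 on the gibberellin list and differed by 0.26 ± 0.16 (SE), with a limma adjusted p of 0.380. AT3G27320 and CXE18 (AT5G23530) differed by -0.12 ± 0.15 and -0.18 ± 0.19 (SE).

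**Figure D2:**
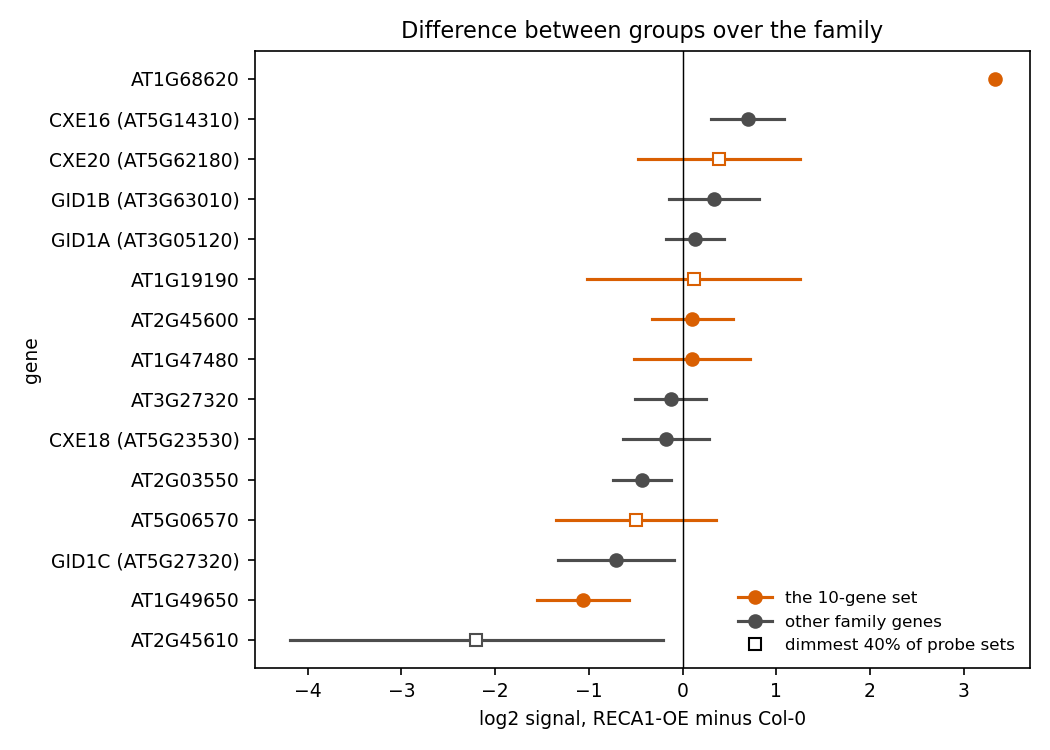
The difference in log2 signal, RECA1-OE minus Col-0, of the 15 measured family genes, with limma's 95% interval as a line for all but AT1G68620, which was not tested; orange marks the 10-gene set, grey the rest of the family and open squares probe sets in the dimmest 40%. AT1G68620 stands at 3.33 while the other 14 genes lie between -2.20 and 0.69.

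Over the whole family 15 of 20 genes were measured, 8 with a higher and 7 with a lower mean in RECA1-OE, and the median log2 difference was 0.10. Apart from AT1G68620 the highest difference was the 0.69 of CXE16. This is a description of the family beside a gene chosen for its rise, and no test of AT1G68620 against its relatives was made.

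The neighbourhood of the genes on the chromosomes was described from the order of protein-coding genes in RefSeq, with the 2 nearest genes on each side of every locus in the set. Of 32 such neighbours outside the set, 18 had a paired probe set, of which 1 was called higher and 0 lower by limma, a count that does not stand out from the 7.86% of all probe sets called. Near AT1G68620, the neighbour AT1G68630 had 4.45 and 4.97 in Col-0 and 4.57 and 5.18 in RECA1-OE, and AT1G68600 differed by 0.28 ± 0.23 (SE) with a limma adjusted p of 0.511. Neither of these neighbours passed, and AT1G68630 differed by 0.16 ± 0.53 (SE). All values of AT1G68630 lay below 6.82, in the dim part, so its difference is uncertain. The other neighbours of AT1G68620, PCR11 (AT1G68610) and PAN (AT1G68640), had no paired probe set. The neighbour that passed was AT5G06560, next to AT5G06570, with a log2 difference of 0.65 ± 0.13 (SE) and a limma adjusted p of 0.042, in the opposite direction to the -0.50 of AT5G06570.

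The genes whose pattern over the 4 arrays was most like that of AT1G68620 were sought among 7244 probe sets above the lowest 40% of signal with 1 paired gene. Likeness was the Euclidean distance between log2 values after each gene's mean over the arrays was subtracted. The nearest was AT1G78410 at a distance of 0.12, with 6.04 and 5.36 in Col-0 and 9.06 and 9.23 in RECA1-OE. Next came WRKY53 (AT4G23810), which encodes a transcription factor acting in senescing and pathogen-challenged leaves, at 0.23, with 6.74 and 5.86 in Col-0 and 9.67 and 9.61 in RECA1-OE. AT1G26380, AT5G52750 and AT1G26410 followed at distances of 0.34, 0.40 and 0.51, and their rises were 12.2-fold, 10.7-fold and 12.5-fold. In all 5 genes and in AT1G68620, Col-0 replicate 2 was the lowest array, and both RECA1-OE arrays were high. The Col-0 values of AT1G78410, WRKY53 and AT1G26410 (6.46 and 5.30) lay below 6.82, so these genes were among the candidates only through their RECA1-OE arrays, and the sizes of their rises are uncertain. The distance rests on 4 arrays and uses the contrast by which AT1G68620 was noticed, so it is a description only.

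**Figure D3:**
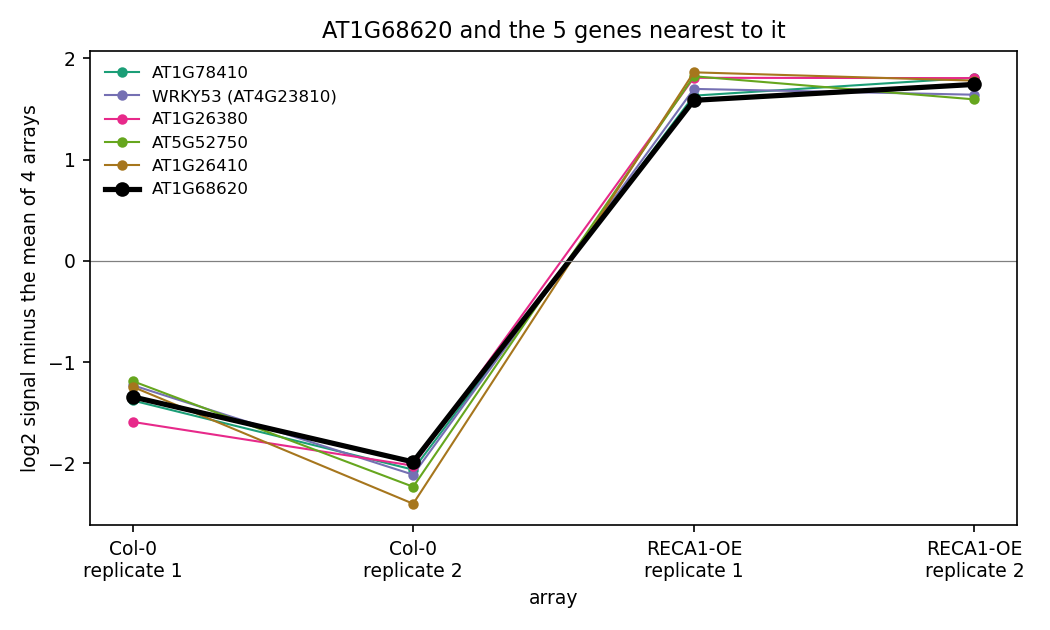
The log2 signal minus its mean over the 4 arrays, for AT1G68620 (black) and the 5 genes nearest to it by Euclidean distance; lines join the values of a gene and imply no order of arrays. All 6 genes are lowest in Col-0 replicate 2, and both RECA1-OE arrays lie above both Col-0 arrays.

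Markers of the tissues in a whole seedling were measured in small numbers. In these bulk samples fewer cells of a type and less RNA per cell cannot be told apart. Of 10 leaf mesophyll markers 3 were measured, and LHCB4.1, RCA and PSAE-1 had log2 signals whose lowest value was 14.01. Their summed linear signal was 64359.5 to 67630.5 in Col-0 and 55264 to 66789.9 in RECA1-OE. Of 11 root markers 3 were measured, PYK10, EXPA7 and EXPA18, with a summed signal of 12136.2 to 18246.8 in Col-0 and 9298.3 to 13120.6 in RECA1-OE. That sum is almost all PYK10, which differed by -0.43 ± 0.28 on the log2 scale (SE), while EXPA7 differed by -0.21 ± 0.26 and EXPA18 by -0.66 ± 0.30. The guard cell gene FMA (FAMA), the single measured gene of 4 on its list, had a linear signal of 193.4 to 232.9 in Col-0 and of 153.4 to 194.1 in RECA1-OE. By limma 0 of these 7 markers passed and 0 had an unadjusted p under 0.05, beside 7.86% and 24.9% of all probe sets. A count of 7 is too small to set apart from those shares. All 7 had a lower mean in RECA1-OE, as did 12058 of all 22746 probe sets. After quantile normalization, however, the median log2 difference of the 3 mesophyll markers was 0.021. Once the dimmest 40% were dropped, 1 of the 2 root markers still tested had an unadjusted p under 0.05 by limma. None of the 6 flower and seed markers had a paired probe set. On the list of salicylate defence and senescence genes 2 of 16 were measured. WRKY53 was called higher (limma adjusted p = 0.0084), where 4.55% of all probe sets were, and 2 genes are too few to set apart from that share. WRKY53 was named above for its likeness to AT1G68620 over the same arrays, so this call adds no separate support. Its Col-0 values lay below 6.82, and the size of its rise is uncertain. SAG101, a lipase-like protein of immune signalling, differed by 0.86 ± 0.41 (SE), which did not pass (limma adjusted p = 0.262). SAG101 had 7.04 and 6.92 in Col-0 and 7.23 and 8.45 in RECA1-OE, so most of its difference comes from RECA1-OE replicate 2. The part of any of these lists in the values of the carboxylesterase genes was not tested.

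**Figure D4:**
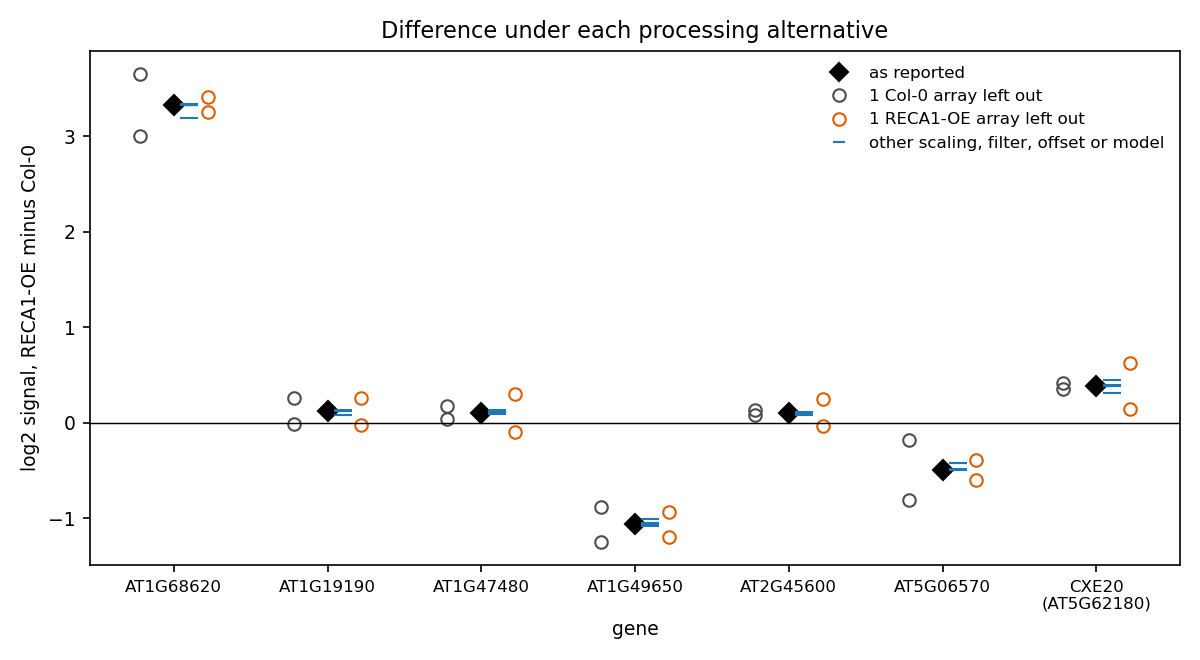
The difference in log2 signal, RECA1-OE minus Col-0, of the 7 measured genes as reported (diamonds), with 1 Col-0 array left out (grey circles), with 1 RECA1-OE array left out (orange circles) and under other scalings, filters, offsets or models (blue dashes). AT1G68620 stays between 3.01 and 3.65 and AT1G49650 between -1.25 and -0.89, while AT1G19190, AT1G47480 and AT2G45600 cross 0 when single arrays are left out.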

How the data were processed

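The values are log2 signals that the authors deposited for every probe set of each array; the submitters' processing notes name MAS5 without a version. That method merges perfect-match and mismatch probes into 1 signal and scales arrays linearly. Log base and scaling were inferred from the numbers, since the linear means, trimmed by 2% on either side, fell within 495.3 to 495.8. Dim MAS5 signals are noisy. Detection calls and a genome build are not given in the sources used here.

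Linear signals below 1 (151 to 246 per array) were set to 1. Of 22746 probe sets, the annotation gave 1 gene for 13513, more for 503 and none for 8730, and 13436 matched TAIR10.1 by Entrez ID. RECA1-OE was compared with Col-0 over all probe sets with limma 3.58.1 in R 4.3.3 (lmFit and trended eBayes, two-sided, Benjamini-Hochberg adjustment, threshold 0.05). There were 2 residual degrees of freedom, to which moderation added 3.94. The number of arrays limits the precision.

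The members and lists were chosen with earlier results of these data known. Named were all 10 loci of the set, of each list up to 4 genes by size or p, and the 5 genes most like AT1G68620. The remaining measured family genes and the chromosomal neighbours were added outside that rule, after values had been seen. Lists of 17 MES methylesterase and 14 strigolactone and karrikin genes had 0 paired probe sets.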

Additional observations from a re-analysis of the deposited data

How the results depend on the processing

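The 11 alternatives were quantile normalization, median centring, leaving out the lowest 40% or 60% of probe sets, 16 added before log2, no mean-variance trend, the replicate number as a block and leaving out each array. The 1787 calls over all probe sets became 2716 with the lowest 40% left out, 0 without the trend (4555 at an unadjusted p under 0.05 by limma) and 0 to 1697 without 1 array. The count of 1 of the 6 genes became 0 without the trend and 0 to 1 without 1 array, each time with AT1G49650 at an unadjusted p under 0.05. The count of 0 of 8 further family genes became 1, CXE16, after median centring and with the lowest 40% or 60% left out. On the salicylate list the count of 1 became 0 without the trend and 0 to 1 without 1 array. The cause of these changes was not tested. With 1 array left out, the log2 difference of AT1G19190 ranged from -0.020 to 0.26, that of AT1G47480 from -0.10 to 0.30 and that of AT2G45600 from -0.034 to 0.24, negative without RECA1-OE replicate 1 and, for AT1G19190, also without Col-0 replicate 2 (-0.015). AT1G68620 ranged from 3.01 to 3.65 over the 11, both ends with 1 Col-0 array left out.

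The replicate numbers have no stated pairing, and same-numbered deviations correlated at 0.0034. With the replicate number as a block, 1440 probe sets were called, AT1G49650 had a limma adjusted p of 0.032, and 0 of the 8 further family genes passed. A fit without 1 array leaves the other array of that group to vary like the remaining pair.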
